A study of Drosophila melanogaster with 10 samples.

Results

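LTR retrotransposons were followed in the RNA of larval brains of Drosophila melanogaster through the insertions that the deposited count table lists one by one. Members were the rows with an insertion identifier whose family name, the text before the braces, was one of 29 families. They came to 868 of the 24278 rows of the table, and to 868 of its 5736 rows of transposable element insertions. All 29 families had rows, from 4 for ZAM to 140 for roo. The tested brains came from larvae of the third instar with the genotype label vostok, the name the series gives to CG11504, and the others from larvae with the genotype label control, whose library names start with yw. Each genotype had 4 RNA-seq libraries from dissected whole brains. The 2 Micro-C libraries of vostok brains were not analysed here. The labels describe neither the vostok allele nor its stock nor the number of brains per library, so the genotype and the rest of the stock cannot be told apart. Nothing states that the 4 libraries of a genotype came from separate animals, and the p-values rest on a spread between libraries that may be technical.

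LTR retrotransposons copy themselves through an RNA that is transcribed from one long terminal repeat to the other and then reverse transcribed into a new insertion. They encode the capsid protein Gag and the enzyme polyprotein Pol, and some Drosophila families of the Gypsy superfamily, gypsy and ZAM among them, also carry an envelope gene and are counted as endogenous retroviruses. Stocks of flies are known to differ in which insertions they carry. In the fly gonad these elements are held down by PIWI-interacting RNAs (piRNAs), and in other tissues chiefly by small interfering RNAs bound to AGO2. The sequences of the insertions and their positions were not used here, and rows are identified by family and by the number that the table gives after the braces.

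Levels are estimated counts per 1000000 counts of gene rows in the same library, abbreviated CPM. They are not per length, so that levels of different families or rows are not compared with each other. The libraries held 57224625 to 81373505 counts in gene rows, and 3 counts, the most that a count of 0 allows, came to 0.0460 CPM on average in vostok and 0.0431 CPM in control libraries. That floor covers counting error only. Log2 fold changes (vostok over control) come with an SE and with a p from the quasi-likelihood test of edgeR, adjusted after Benjamini and Hochberg. The SE was worked back from the fold change and the F statistic of that test, and is a rough guide for rows near 0 in one genotype. A family was called at an adjusted p below 0.05 among 10860 genes and family sums tested together. A row was called at the same threshold among 11851 rows of the whole table.

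Brain markers were present in each library, with a summed level over 7 markers of 2356 to 2709 CPM in vostok and 1376 to 2471 CPM in control libraries. The sum over 8 hemocyte (blood cell) markers was 245 to 918 CPM in vostok and 349 to 5870 CPM in control libraries. Of the 8 hemocyte markers vkg was called lower in vostok (-2.73 on the log2 scale), and of the 7 brain markers mira was called higher (0.30), beside 23.2% called over all gene rows. No marker of these lists was at 0 in all libraries. In bulk RNA, fewer cells of a type and less RNA per cell cannot be told apart. Fat body markers, 5 in all, summed to 53.6 to 226 CPM in vostok and 25.3 to 179 CPM in control libraries. The 6 imaginal disc markers summed to 341 to 376 and 365 to 465 CPM in vostok and control libraries, and the 8 germline and ovarian markers to 190 to 237 and 233 to 373 CPM, of which Fas3, a gene that other tissues express too, was 168 to 217 and 218 to 364 CPM. The summed germline and ovarian levels overlapped, with vostok replicate 1 (237 CPM) above control replicate 2 (233 CPM). Of the 4 markers called in this list, bam, osk and tj were higher (1.71, 1.09 and 0.80) and Fas3 was lower (-0.64). The imaginal disc marker ci was called lower (-1.03), and the fat body marker Yp1 was called higher, at 0.542 ± 0.184 in vostok and 0.00700 ± 0.00821 CPM in control libraries, under the floor. Their part in the results below was not tested.

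The summed level of all member rows differed little between the genotypes, while single families differed by large factors in both directions. The member total was 3949, 4077, 4109 and 4215 CPM in vostok replicates 1 to 4, against 3757, 3401, 4285 and 3579 CPM in control replicates 1 to 4. The groups overlapped, with control replicate 3 above each vostok library. The means were 4088 ± 109 in vostok and 3755 ± 382 CPM in control libraries (SD, n = 4 each), a ratio of 1.09, and no test was made on this sum over chosen families. Rows of other transposable elements, which include further LTR families, came to 1503 ± 86.2 in vostok and 973 ± 189 CPM in control libraries. Members thus made up 72.2% to 74.1% of element counts in vostok and 74.2% to 83.4% in control libraries.

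Of the 29 family sums, 8 were called higher and 5 lower in vostok libraries. That is 27.6% and 17.2% of the families, beside a background of 11.7% called higher and 12.1% called lower over all genes and family sums, 23.8% in both directions. Of the 82 other element families tested, 15 (18.3%) were called higher and 9 (11%) lower. The median log2 fold change was 0.04 over the 29 member families, 0.40 over the other element families and 0.01 over all genes and family sums. The levels of 17 member families did not overlap between the genotypes, 12 of them higher and 5 lower in vostok. These are 58.6% of the families, 41.4% higher and 17.2% lower, against 30.2% of all genes and family sums, 16.8% higher and 13.4% lower. By superfamily, 6 families were called higher and 4 lower of the 23 of the Gypsy superfamily, 1 higher and 1 lower of the 4 of the Bel-Pao superfamily, and 1 higher of the 2 of the Copia superfamily. With 1 library left out at a time, 7 of the 8 higher and 3 of the 5 lower calls held in all 8 fits.

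**Figure D1:**
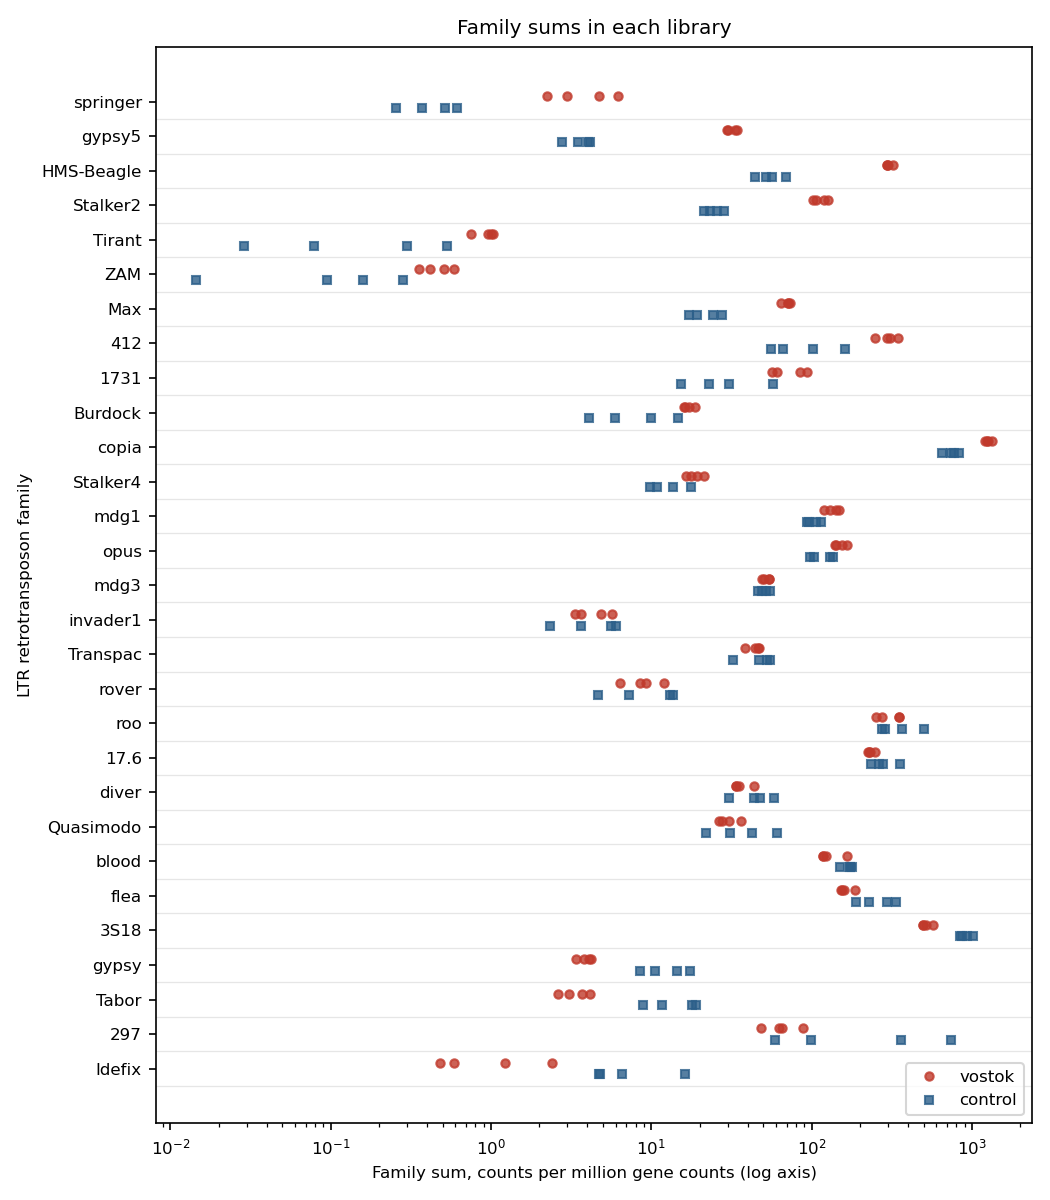
Level of each LTR retrotransposon family in each library, as the sum over its insertion rows in counts per 1000000 gene counts on a log axis. Circles are the 4 vostok libraries and squares the 4 control libraries, with families ordered by fold change. In HMS-Beagle, for example, vostok libraries lie at 296 to 321 and control libraries at 44.3 to 69.2 CPM, and in 297 the control libraries spread over 59.3 to 737 CPM.

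The clearest increases were in gypsy5, HMS-Beagle and Stalker2, all of the Gypsy superfamily. The gypsy5 sum was 34.2, 30.0, 29.8 and 33.5 CPM in vostok replicates 1 to 4, against 3.51, 2.78, 4.13 and 4.02 CPM in control replicates 1 to 4 (log2 fold change 3.14 ± 0.14, adjusted p = 5.36e-06). HMS-Beagle was at 321, 296, 297 and 300.2 CPM in vostok, against 44.3, 56.9, 51.6 and 69.2 CPM in control libraries (2.45 ± 0.13, adjusted p = 1.64e-05). In both families each vostok library was several times above the highest control library. Stalker2 was at 102, 106, 127 and 119.7 CPM in vostok, against 21.4, 28.3, 23.3 and 25.6 CPM in control libraries (2.20 ± 0.11, adjusted p = 1.07e-05). Its vostok libraries also lay well apart from its control libraries.

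Max, of the Bel-Pao superfamily, was at 71.5, 73.1, 64.7 and 71.2 CPM in vostok, against 17.3, 27.7, 19.3 and 24.2 CPM in control libraries (1.66 ± 0.14, adjusted p = 2.04e-04). 412, a Gypsy-superfamily element without an envelope gene, was at 249, 297, 309 and 345 CPM in vostok, against 55.7, 163, 66.5 and 103 CPM in control libraries (1.63 ± 0.32, adjusted p = 0.00987). The genotypes did not overlap in either family, but the 412 log2 fold change depended on the control libraries kept. It was 2.00 without control replicate 2, which had the highest 412 level of its group. It was 1.44 without control replicate 1, which had the lowest, and 1.18 (adjusted p = 0.0201) without control replicates 1 and 3. springer, of the Gypsy superfamily, was low in both genotypes, at 2.24, 4.72, 6.22 and 2.97 CPM in vostok and 0.255, 0.612, 0.515 and 0.371 CPM in control libraries (3.18 ± 0.41, adjusted p = 0.00121).

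copia, which gave the Copia superfamily its name, had a smaller but even shift. It was at 1245, 1207, 1337 and 1262 CPM in vostok, against 767, 654, 825 and 743 CPM in control libraries (0.76 ± 0.08, adjusted p = 5.86e-04). Its highest control library stayed below its lowest vostok library by more than the range within the control group. mdg1 was at 141, 148, 131 and 120.2 CPM in vostok, against 114, 93.6, 96.4 and 107 CPM in control libraries (0.39 ± 0.09, adjusted p = 0.0183). mdg1 no longer passed when vostok replicate 2 was left out (adjusted p = 0.0577), nor when control replicate 3 was (adjusted p = 0.0547).

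Of the 5 families called lower, gypsy, the retrovirus-like element whose insertions carry binding sites for the insulator protein su(Hw), was at 3.80, 4.12, 4.21 and 3.40 CPM in vostok, against 8.45, 17.5, 10.5 and 14.4 CPM in control libraries (-1.71 ± 0.22, adjusted p = 0.00135). Tabor was at 3.07, 2.64, 3.70 and 4.13 CPM in vostok, against 18.1, 11.7, 19.1 and 8.89 CPM in control libraries (-2.09 ± 0.27, adjusted p = 0.00141). Idefix, which like gypsy is controlled by the flamenco piRNA locus in ovarian follicle cells, was at 0.481, 0.589, 2.39 and 1.22 CPM in vostok, against 6.56, 16.1, 4.73 and 4.79 CPM in control libraries (-2.78 ± 0.64, adjusted p = 0.0183). No vostok library reached a control library in these 3 families, although Idefix varied several-fold within each genotype. Idefix no longer passed when vostok replicate 2 was left out (adjusted p = 0.0566), nor when vostok replicate 4 was (adjusted p = 0.0516).

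3S18, of the Bel-Pao superfamily, was at 519, 496, 497 and 570.2 CPM in vostok, against 846, 869, 1019.6 and 928 CPM in control libraries (-0.81 ± 0.08, adjusted p = 4.15e-04). flea was at 159.6, 153, 154 and 187 CPM in vostok, against 294, 190.4, 337 and 227 CPM in control libraries (-0.68 ± 0.18, adjusted p = 0.0276). The 3S18 groups lay far apart for their spread, whereas the highest flea value in vostok and the lowest in control libraries nearly met. The flea call was lost when vostok replicate 1, 2 or 3 or control replicate 1 or 3 was left out (highest adjusted p 0.0799).

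**Figure D2:**
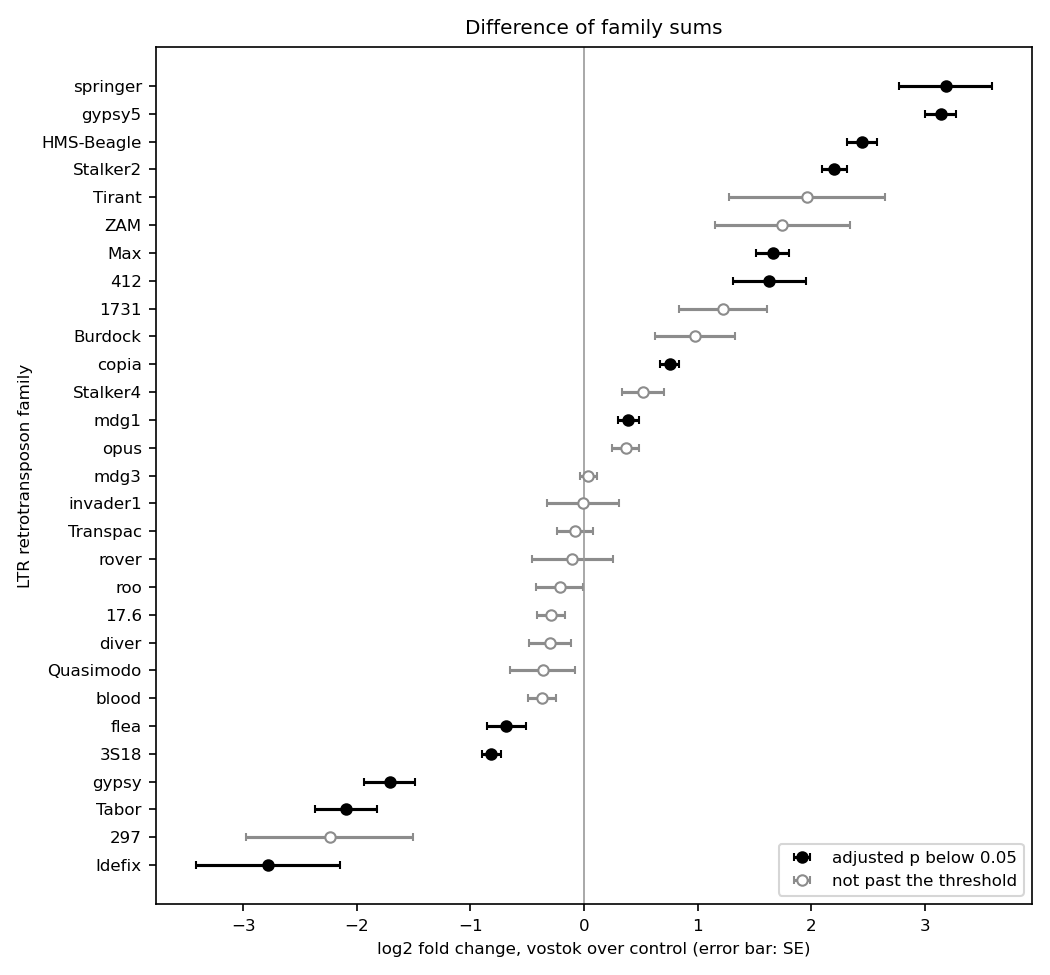
Log2 fold change of each family sum (vostok over control) with its SE as the error bar. Filled points are the 13 families past the adjusted p threshold of 0.05, 8 higher and 5 lower, and open points the 16 that were not, among them 297 at -2.24 ± 0.73 and Tirant at 1.97 ± 0.69.

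The other 16 families did not pass the test. Spread relative to the mean was wider in control than in vostok libraries in 26 of the 29 families. The share of genes or other element families with a wider control spread was not computed. In 16 families (55.2%) control replicates 2 and 4 were both above control replicates 1 and 3, and in 4 families (13.8%), namely Tabor, 297, copia and flea, both were below. Among 10749 gene rows tested, 30.5% had the first order and 32.0% the second. The brain marker sum had the first order, with 1376, 2471, 1603 and 2240 CPM in control replicates 1 to 4. The hemocyte marker sum had the second order, with 1994, 349, 5870 and 1779 CPM in control replicates 1 to 4, and it was 918, 463, 468 and 245 CPM in vostok replicates 1 to 4.

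The sum of 297, an envelope-bearing relative of 17.6, was 65.4, 62.8, 88.6 and 48.4 CPM in vostok, against 358, 59.3, 737 and 99.6 CPM in control libraries (-2.24 ± 0.73, adjusted p = 0.0583). Control replicates 1 and 3 stood far above the other 6 libraries, and control replicate 2 was within the vostok range. Control replicate 3 was the highest library both for 297 and for the hemocyte markers, and vostok replicate 4 the lowest for both. Other libraries did not keep this order. Control replicates 1 and 4 had hemocyte sums of 1994 and 1779 CPM, but 297 levels of 358 and 99.6 CPM. Vostok replicate 1 had a higher hemocyte sum than vostok replicate 3 (918 and 468 CPM), but a lower 297 level (65.4 and 88.6 CPM). Without control replicates 1 and 3 the log2 fold change of 297 was -0.26 (adjusted p = 0.66), whereas without control replicate 2 it was -2.59 (adjusted p = 0.0187). Of 44 rows of 297 tested, 34 were higher in both control replicates 1 and 3 than in both control replicates 2 and 4. Over all gene rows tested 32.0% had this order. The rows of 297 share reads, and 297 was chosen for this count because its control range was the widest. The count therefore adds nothing independent to the family sum. The part of hemocyte RNA in the 297 level was not tested.

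1731, the second Copia-superfamily element, was at 84.8, 93.3, 56.3 and 61.1 CPM in vostok, against 23.0, 57.6, 15.3 and 30.4 CPM in control libraries (1.23 ± 0.39, adjusted p = 0.0528). Control replicate 2, the control library with the highest brain marker sum, overlapped the vostok range, and without it the adjusted p was 0.00358. No other fit with a single library left out passed, and the adjusted p was 0.126 without vostok replicate 2. Without control replicates 1 and 3 the 1731 log2 fold change was 0.75 (adjusted p = 0.269). Brain marker sums and 1731 levels did not share one order in either genotype. Control replicate 3 had the lowest 1731 level of its group, but control replicate 1 the lowest brain marker sum (1376 CPM). Vostok replicate 2 had the lowest brain marker sum of its group (2356 CPM) and the highest 1731 level. Vostok replicate 4 had the highest brain marker sum (2709 CPM) with a 1731 level of 61.1 CPM. The part of brain cell content in the 1731 level was not tested. Burdock was at 16.3, 15.9, 17.3 and 18.8 CPM in vostok, against 4.07, 14.7, 5.93 and 9.93 CPM in control libraries (0.98 ± 0.35, adjusted p = 0.0753, and 0.00772 without control replicate 2). opus was at 141, 165, 155 and 141 CPM in vostok, against 98.0, 135, 103 and 129.9 CPM in control libraries (0.37 ± 0.12, adjusted p = 0.0537, and 0.0146 without control replicate 2). In Burdock and opus each vostok library was above each control library. Both passed in no other fit with a single library left out. Leaving out control replicate 3 gave Burdock an adjusted p of 0.166, and leaving out vostok replicate 2 gave opus 0.132. Without control replicates 1 and 3 their log2 fold changes were 0.47 and 0.18 (adjusted p = 0.100 and 0.221).

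**Figure D3:**
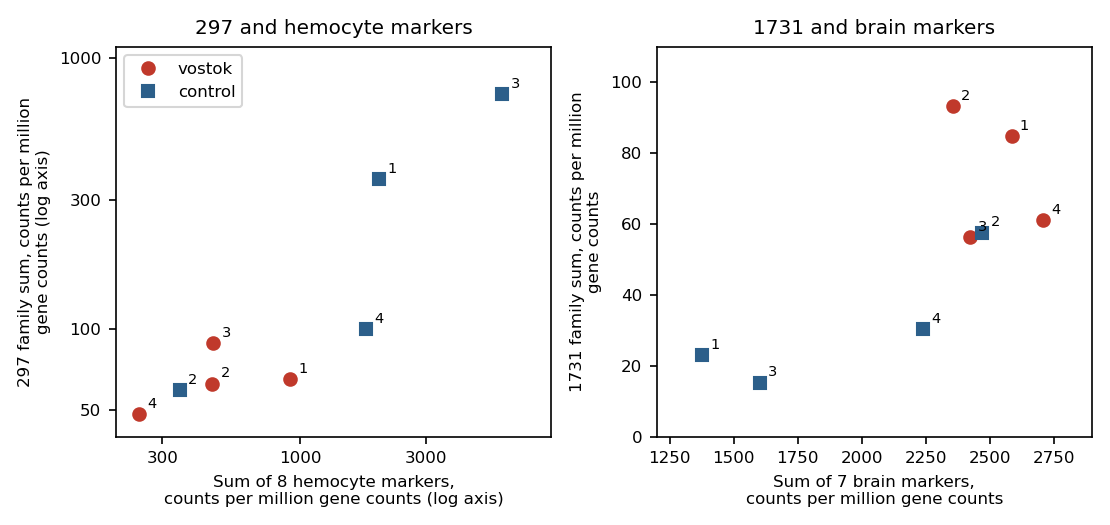
Left, the 297 family sum against the summed level of 8 hemocyte markers in each library, both in counts per 1000000 gene counts on log axes; right, the 1731 family sum against the summed level of 7 brain markers on linear axes, the horizontal one not starting at 0. Circles are vostok and squares control libraries, numbered by replicate. Control replicate 3 has the highest 297 level (737) and the highest hemocyte sum (5870), and control replicate 2 is the control library with the highest 1731 level (57.6) and brain sum (2471). Among vostok libraries, replicate 2 has the lowest brain sum (2356) and the highest 1731 level (93.3). Control replicates 1 and 4 have hemocyte sums of 1994 and 1779, but 297 levels of 358 and 99.6.

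The retrovirus-like families Tirant and ZAM were scarce. Tirant was at 1.02, 0.995, 0.957 and 0.751 CPM in vostok, against 0.0290, 0.528, 0.0786 and 0.300 CPM in control libraries (1.97 ± 0.69, adjusted p = 0.069). ZAM was at 0.358, 0.587, 0.507 and 0.419 CPM in vostok, against 0.0145, 0.160, 0.0943 and 0.285 CPM in control libraries (1.75 ± 0.60, adjusted p = 0.0641). Neither overlapped between the genotypes, but both were below 3 counts in control replicate 1. Tirant passed without control replicate 2 (adjusted p = 0.0110) and ZAM without control replicate 4 (adjusted p = 0.0368). Neither passed with any other single library left out, and without control replicate 3 their adjusted p was 0.148 and 0.151. Stalker4 was at 16.6 to 21.2 CPM in vostok and 9.82 to 17.7 CPM in control libraries (0.52 ± 0.18, adjusted p = 0.0688, and 0.00504 without control replicate 2). Its adjusted p was 0.158 without control replicate 3. Without control replicates 1 and 3 its log2 fold change was 0.25 (adjusted p = 0.2745).

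In the remaining families the genotypes overlapped. blood was at 117 to 166 CPM in vostok and 151 to 179 CPM in control libraries (-0.37 ± 0.12, adjusted p = 0.059), and passed without vostok replicate 4, its highest vostok library (adjusted p = 0.00671). 17.6 was at 224 to 247 CPM in vostok and 233 to 358 CPM in control libraries (-0.29 ± 0.12, adjusted p = 0.115), and passed without control replicate 2 (adjusted p = 0.0275). With other single libraries left out, neither blood nor 17.6 passed. The highest adjusted p was 0.1385 for blood (without vostok replicate 2) and 0.2115 for 17.6 (without vostok replicate 4). roo, the family with the most rows, was at 253 to 351 CPM in vostok and 276 to 499.6 CPM in control libraries (-0.22 ± 0.21, adjusted p = 0.44). Quasimodo was at 26.6 to 36.1 CPM in vostok and 21.8 to 60.4 CPM in control libraries (-0.36 ± 0.28, adjusted p = 0.344), and was lower in vostok once control replicates 1 and 3 were left out (-0.77, adjusted p = 0.0332). The same omission gave diver, at 33.6 to 43.9 CPM in vostok and 30.6 to 58.5 CPM in control libraries (-0.30 ± 0.19), an adjusted p of 0.0392. The adjusted p of mdg3, Transpac, rover and invader1 was 0.688, 0.704, 0.838 and 0.987, with log2 fold changes of 0.04 ± 0.07, -0.08 ± 0.16, -0.10 ± 0.35 and -0.01 ± 0.32.

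Below the family level, the insertions to which the reads were assigned differed between the genotypes even where a sum did not. Of the 868 member rows 224 had 0 counts in every library and 413 passed the filter on low counts. Of those tested, 97 (23.5%) were called higher and 45 (10.9%) lower in vostok libraries, beside a background over all rows of the table of 12.1% called higher and 11.8% called lower. Of 574 other element rows tested, 92 (16%) were called higher and 70 (12.2%) lower. Rows of a family share near-identical sequence, so that the quantifier divides reads between them, and they are not independent of each other. A row is uncertain in a way that a family sum is less, and an insertion absent from a stock can still receive reads from a copy elsewhere. In 24 families at least 1 row was called, and in 13 of them rows were called in both directions. Families were not counted in this way among the other elements.

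**Figure D4:**
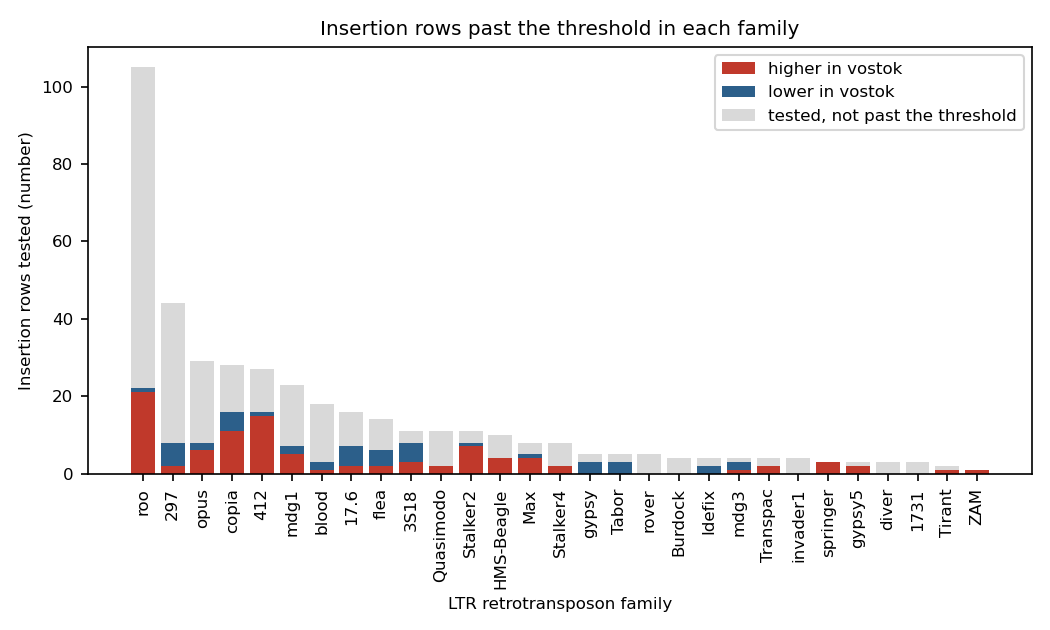
Number of insertion rows tested in each family, split into rows called higher in vostok, rows called lower, and rows tested without a call. roo has the most rows tested (105, with 21 higher and 1 lower), and copia, 3S18, 17.6 and flea have calls in both directions.

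The make-up of a family was described by the share of its counts assigned to each row, and 2 libraries were compared by the percentage of counts that would have to move to another row to make them alike. In 12 families every vostok library differed from every control library by more than any pair of libraries within a genotype differed. In copia the smallest difference between the genotypes was 55.3% and the largest within one was 17.7%. The same pair of values was 53.4% and 14.7% for Max, 29.9% and 18.5% for 3S18, and 32.7% and 20.8% for 412. The make-up also stood apart in gypsy, Stalker2, 17.6, mdg1, mdg3, opus, Quasimodo and flea, in some of them barely. The same pair of values was 24.6% and 15.7% for 17.6 and 20.3% and 10.8% for Quasimodo. It was only 21.59% and 21.42% for Stalker2, 27.82% and 27.59% for opus, 26.55% and 26.08% for mdg1, and 16.34% and 14.97% for flea. The row with the most counts was the same in both genotypes in 15 families and another one in 14. Make-up and leading rows were not compared in other element families, so these counts have no background.

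copia shows how rows moved against each other within one family. Of its 28 rows tested, 11 were called higher and 5 lower. The row copia{}293 was at 159.5, 168, 165 and 146 CPM in vostok, against 0.453, 0.896, 1.13 and 0.995 CPM in control libraries (7.53 ± 0.25, adjusted p = 1.43e-06). The rows copia{}920 and copia{}910 had means of 141 and 158 CPM in vostok and 1.92 and 3.65 CPM in control libraries (6.21 ± 0.12 and 5.43 ± 0.19). In the other direction, copia{}1467 was at 4.99, 4.08, 5.55 and 4.79 CPM in vostok, against 98.6, 103.7, 112 and 124 CPM in control libraries (-4.50 ± 0.12, adjusted p = 5.19e-07). These 4 rows passed in each fit with 1 library omitted. The row with the most counts over all libraries, copia{}342, did not pass the test (0.17 ± 0.20, adjusted p = 0.518).

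Several rows were at 0 in all libraries of one genotype. Such rows passed the filter on low counts only through the other genotype. The fold bounds below cover counting error only, not how the quantifier divides reads between copies. 412{}971 was at 17.2, 22.7, 21.4 and 35.6 CPM in vostok libraries and at 0 in the 4 control libraries, at least 562-fold higher when 3 counts are set for each control library (adjusted p = 1.68e-04). 412{}95 and 412{}63, with vostok means of 1.68 ± 0.862 and 1.40 ± 0.800 CPM, and Transpac{}32, with 1.98 ± 0.870 CPM, were also at 0 in each control library, and at least 39.0-, 32.3- and 45.8-fold higher on the same basis. gypsy{}6525 was at 0 in the 4 vostok libraries and at 3.84, 6.09, 3.94 and 5.11 CPM in control libraries, which is at least 103-fold lower (adjusted p = 1.36e-04). It took 37.3% of gypsy counts in control libraries, and without it the gypsy sum was still lower in vostok (-1.04, adjusted p = 0.0261). flea{}875 was at 0 in the 4 vostok libraries, against 4.64, 2.50, 5.55 and 3.86 CPM in control libraries, at least 89.8-fold lower.

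Other rows among the 12 largest increases were near 0 in control libraries. 412{}1375 averaged 6.51 ± 0.472 in vostok and 0.0848 ± 0.102 CPM in control libraries, and opus{}1146 averaged 1.33 ± 0.155 in vostok and 0.0164 ± 0.0327 CPM in control libraries, the second under the floor. 412{}922, opus{}292 and HMS-Beagle{}101 averaged 4.52 ± 0.955, 7.59 ± 8.20 and 17.5 ± 6.16 CPM in vostok libraries and had counts in 1 control library each. Leaving out 1 library kept the calls of 412{}922 and opus{}292 in 3 of 8 fits and that of HMS-Beagle{}101 in 6 of 8 (highest adjusted p 0.0662, 0.0750 and 0.0558).

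**Figure D5:**
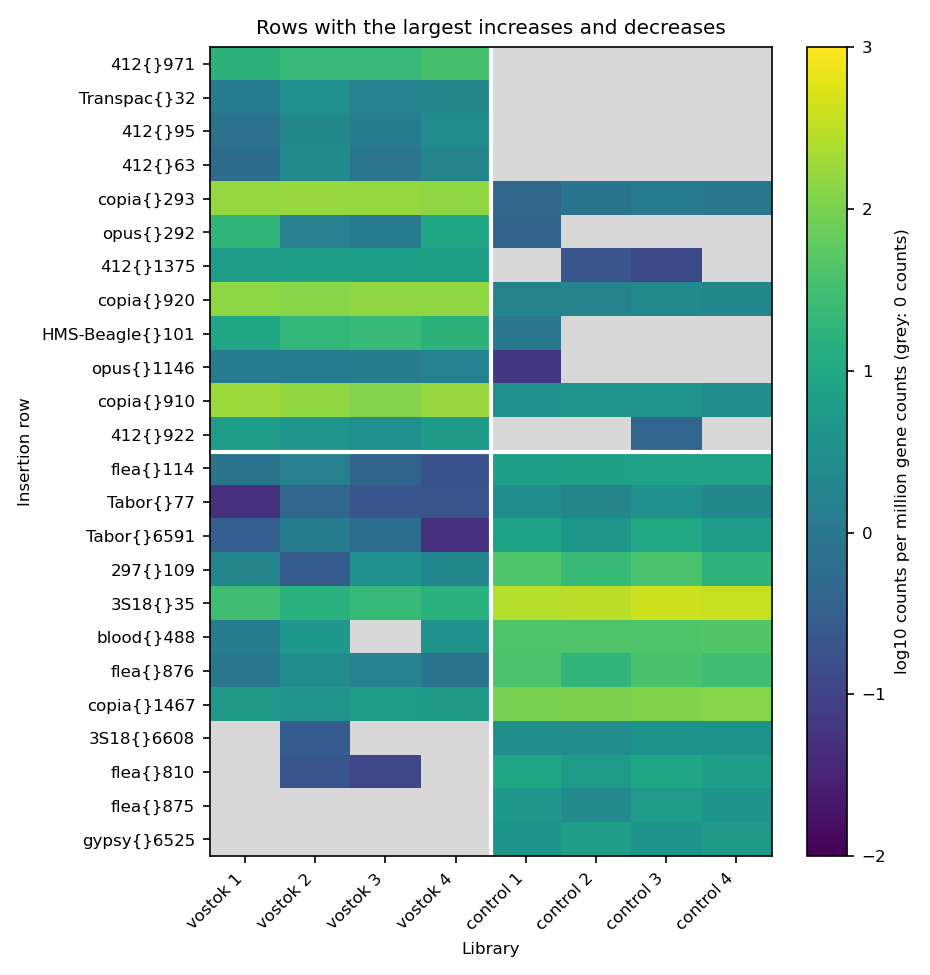
Level of the 12 rows with the largest increases (upper block) and the 12 with the largest decreases (lower block) in each library, as log10 counts per 1000000 gene counts, with vostok libraries left of control libraries. Grey cells hold 0 counts; 412{}971 is grey in the 4 control libraries and gypsy{}6525 in the 4 vostok libraries.

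Among the largest decreases, 3S18{}35 was at 29.9, 15.7, 22.6 and 15.9 CPM in vostok, against 281, 305, 421 and 364 CPM in control libraries (-4.03 ± 0.26, adjusted p = 3.79e-05). The row holds 37.4% of 3S18 counts in control libraries, where it is the largest, while 3S18{}3954 is the largest in vostok libraries. 3S18{}3954 fell less, to 171 ± 19.9 in vostok, against 266 ± 18.4 CPM in control libraries (-0.63 ± 0.10, adjusted p = 0.00292). blood{}488 was at 1.28, 4.66, 0 and 3.38 CPM in vostok, against 41.5, 41.9, 42.7 and 46.6 CPM in control libraries (-4.21 ± 0.94, adjusted p = 0.0168), although the blood sum did not pass. flea{}876 averaged 1.53 ± 0.879 in vostok and 30.9 ± 8.46 CPM in control libraries (-4.32 ± 0.43), and 297{}109 averaged 1.88 ± 1.29 in vostok and 30.3 ± 11.6 CPM in control libraries (-4.01 ± 0.66). The remaining decreases were flea{}810, flea{}114, 3S18{}6608, Tabor{}6591 and Tabor{}77, with control means of 7.33, 7.28, 3.27, 6.88 and 2.44 CPM and vostok means under 1 CPM. All 12 calls held in all 8 fits with a library left out, the highest adjusted p being 0.04999 (Tabor{}6591 without vostok replicate 3).

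Single rows also carried much of some called sums. gypsy5{}103 held 85.1% of gypsy5 counts in vostok and 78.1% in control libraries, with means of 27.1 ± 2.70 and 2.82 ± 0.557 CPM (3.27 ± 0.16). Max{}5599 held 53.6% of Max counts in vostok and 12.9% in control libraries, and rose to 37.6 ± 2.46 CPM in vostok, against 2.86 ± 0.957 CPM in control libraries (3.71 ± 0.24, adjusted p = 3.92e-05). HMS-Beagle{}390 averaged 131 ± 6.65 in vostok and 16.6 ± 5.76 CPM in control libraries (2.98 ± 0.24), and Stalker2{}1673 averaged 43.9 ± 5.77 in vostok and 13.4 ± 3.55 CPM in control libraries (1.71 ± 0.20). springer{}300 averaged 1.74 ± 1.18 in vostok and 0.0780 ± 0.112 CPM in control libraries (4.40 ± 1.10, adjusted p = 0.0251), a call kept in 5 of 8 fits with a library left out. In mdg1 the leading row, mdg1{}1442, went against its family, at 10.7 ± 3.41 in vostok and 22.2 ± 3.25 CPM in control libraries (-1.05 ± 0.22, adjusted p = 0.0112). The leading rows of 412, flea and Idefix, 412{}5, flea{}102 and Idefix{}3762, did not pass (adjusted p = 0.0919, 0.0932 and 0.0843).

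With the leading row taken out, the 13 called families kept their direction and their call, but the size of 4 changed by over 1.5 times. The log2 fold change was then 0.76 for Max, -1.43 for Tabor (adjusted p = 0.0423), -1.04 for gypsy and 2.25 for 412. Transpac and mdg3, level in sum, then differed. Transpac{}1439 held 71.0% of Transpac counts in vostok and 97.4% in control libraries, and the sum of the other 7 rows was higher in vostok (3.40, adjusted p = 7.71e-05). mdg3{}1683 held 70.5% of mdg3 counts in vostok and 47.1% in control libraries, and the sum of its other rows was lower in vostok (-0.81, adjusted p = 0.00188). roo{}339 held 73.8% of roo counts in vostok and 84.7% in control libraries. Without it the roo sum did not pass (0.55, adjusted p = 0.085), although 21 of its 105 rows tested were called higher and 1 lower.

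The table names 8 member rows after an allele of a gene. These rows were picked for their names after their values were seen. 1731{}pyd[1272] held 94.6% of 1731 counts in vostok and 91.8% in control libraries, at 82.9, 89.0, 51.8 and 55.9 CPM in vostok, against 21.7, 53.6, 13.04 and 27.6 CPM in control libraries (1.27 ± 0.41, adjusted p = 0.0565). The gene pyd, which encodes a junction scaffold protein, was at 404 to 524 CPM in vostok and 391 to 483 CPM in control libraries (0.05 ± 0.10, adjusted p = 0.748). 412{}teq[iso-1] had 7.34 and 7.63 CPM in vostok replicates 1 and 4 and 0 in the other 6 libraries, and was not tested. The gene teq was at 24.1, 25.1, 25.5 and 26.5 CPM in vostok, against 9.66, 20.3, 13.6 and 19.3 CPM in control libraries (0.69 ± 0.22, adjusted p = 0.0522). The rows named after CG42345 and CG42395 were at 0 in all libraries, and the other 4, named after CG2528, alpha4GT2, CG33267 and CG42335, had adjusted p values of 0.748, 0.852, 0.344 and 0.0703.

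Genes known to act on LTR retrotransposons, or derived from them, were mixed. Of 51 such genes on the list 49 were tested, and 7 were called higher and 8 lower, 30.6% against a background of 23.2% of gene rows. With 1 library left out, 2 to 5 genes were called lower in 7 of the 8 fits, and 10 without control replicate 2. Of the 5 genes of RNA interference, AGO2, the Argonaute that uses small interfering RNAs, was at 267, 260, 241 and 255 CPM in vostok, against 362, 341, 418 and 386 CPM in control libraries (-0.56, adjusted p = 0.00181). r2d2, the partner of Dcr-2 in loading AGO2, was called higher (58.2 ± 1.49 in vostok and 47.4 ± 2.09 CPM in control libraries, adjusted p = 0.0059), and Dcr-2 itself did not pass (119 ± 7.59 in vostok and 130 ± 7.48 CPM in control libraries, adjusted p = 0.18).

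Of the 16 piRNA factors used in gonadal soma 2 were called higher and 4 lower, 37.5% in both directions, beside 23.2% over all gene rows. piwi, the founding PIWI protein, was at 0.831 ± 0.161 in vostok and 1.18 ± 0.303 CPM in control libraries (adjusted p = 0.179). The flamenco RNA was at 0.471 ± 0.167 in vostok and 0.585 ± 0.121 CPM in control libraries (adjusted p = 0.458). The higher ones were Gasz, which anchors piRNA processing at mitochondria (24.7 ± 1.36 in vostok and 15.9 ± 1.96 CPM in control libraries), and the Tudor protein gene SoYb (2.08 ± 0.419 in vostok and 0.541 ± 0.0989 CPM in control libraries). The lower ones were vret, shu, nxf2 and Nxt1, with log2 fold changes of -0.72, -0.65, -0.38 and -0.30 (adjusted p = 0.0232, 0.0412, 0.0299 and 0.0296). Of the 15 germline piRNA factors tested, 40% were called. The genes del, tej, moon and tud were higher (0.68, 1.06, 2.25 and 0.42 on the log2 scale). Their adjusted p values were 0.0019, 0.021, 0.0075 and 0.032. Of these, moon was scarce, at 0.433 ± 0.0959 in vostok and 0.0882 ± 0.0559 CPM in control libraries, the second near the floor. The genes spn-E and papi were lower (-0.47 and -0.31, adjusted p = 0.0315 and 0.0406).

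Of the 10 silencing and insulator factors, among them the H3K9 methyltransferase gene egg, the gene of HP1a and su(Hw), edgeR called 0 higher and 0 lower. At an unadjusted p below 0.05 there was 1 higher and 1 lower, DESeq2 called 1 higher, and limma voom called 0 in either direction. su(Hw) was at 74.1 ± 7.04 in vostok and 91.8 ± 14.7 CPM in control libraries (adjusted p = 0.0962). Of the 3 host genes that descend from gag or env, Arc1, a neuronal capsid protein gene, was at 210, 198, 211 and 204.6 CPM in vostok, against 347, 323, 486 and 341 CPM in control libraries (-0.86, adjusted p = 0.00253). The other two, Arc2 and Iris, did not pass (adjusted p = 0.913 and 0.667).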

How the data were processed

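The deposited table holds estimated counts per row, not scaled between libraries; its name gives salmon as the quantifier, per the file headers and name. The submitters' processing notes also list BWA and dm6 but give them no role. For salmon, the version, the annotation and the strand setting were not given in the sources used here. The authors' estimated counts were rounded after families were summed. Library sizes were the totals of gene rows (17895 rows), without further factors. Rows were filtered with filterByExpr at its defaults and tested with edgeR 4.0.16 (glmQLFit, robust, and glmQLFTest) in R 4.3.3; the design held genotype alone. Single rows were fitted with the whole table, and family sums with all gene rows. CPM values and SDs are unrounded counts per 1000000 gene counts.

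Families and gene lists were chosen with earlier results of these data known. All families are reported; rows named were the most abundant row of each called family and, among called rows without overlap and with at least 1 CPM in a group, the 12 largest increases and 12 largest decreases, plus rows said to be picked later. Of the gene list, boot and nxf3 were not found by symbol, flam was matched to lncRNA:flam, and Lsd-1 was left out because the symbol names a lipid droplet gene in the table. The fits were tested on simulated data, with changes of 1.5-, 2- and 4-fold set in some rows of each fitted table. The fit with family sums recovered 31.3%, 70.1% and 84.8% of them, and 3.88% of its calls were false. The fit of single rows recovered 37.3%, 46.3% and 87.9%, and 5.79% of its calls were false. The changed rows were drawn at random from all rows tested, most of them genes, and each row had the same simulated dispersion in both genotypes. Division of reads between copies was not simulated. These rates are thus not rates for LTR families or insertion rows. A family or row without a call may still differ. No libraries of a genotype agreed within sampling noise. Alternatives used TMM or RLE factors, other filters, DESeq2 1.42.0, limma 3.58.1 (voom), a replicate block, omitted libraries, sums without the leading row, and element families alone; leaving out control replicates 1 and 3 together was added after the data were seen. Figures were drawn with matplotlib 3.10.9.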

Additional observations from a re-analysis of the deposited data

Results flagged for a closer look

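In groups of 4 libraries, one library stood far from the other three in the following sums and rows; 130 groups were examined, and chance alone gives such a gap in about 1 group in 20. The HMS-Beagle sum was 321 CPM in vostok replicate 1, against 296 to 300.2 in the other vostok libraries. The blood sum was 166 CPM in vostok replicate 4, against 117 to 123, and the diver sum 43.9 CPM in vostok replicate 1, against 33.6 to 35.2. The Idefix sum was 16.1 CPM in control replicate 2, against 4.73 to 6.56 in the other control libraries, and its row Idefix{}3762 8.08 CPM in that library, against 1.501 to 2.115. The row mdg1{}1442 was at 15.8 CPM in vostok replicate 2, against 8.60 to 9.55. Rows with counts in a single library of a genotype, which meet the criterion by construction, were opus{}292 (0.385 CPM, control replicate 1), HMS-Beagle{}101 (1.02, control replicate 1), opus{}1146 (0.0655, control replicate 1), 412{}922 (0.424, control replicate 3) and 3S18{}6608 (0.287, vostok replicate 2).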

How the results depend on the processing

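Of the 8 higher and 5 lower families, TMM factors gave 8 and 6 and RLE factors 8 and 5. DESeq2 gave 14 higher and 7 lower, limma voom 12 and 5, and element families tested alone 12 and 5. With a replicate block 8 families were higher and 3 lower; mdg1 (adjusted p = 0.0534), Idefix (0.0554) and flea (0.0589) no longer passed and 1731 did (0.0235). The repeat numbers are shared by the genotypes. Deviations of libraries of the same number had correlations of 0.18, 0.00766, 0.0402 and -0.0474 for repeats 1 to 4. Libraries of different numbers had -0.376 to 0.31. These values do not settle whether libraries of the same number were handled together. With one library left out, higher families numbered 7 to 13 (most without control replicate 2) and lower families 3 to 7 (fewest without vostok replicate 2). Called higher rows then numbered 69 to 132 and called lower rows 34 to 57. Higher genes of the list that acts on LTR retrotransposons numbered 5 to 8 and lower ones 2 to 10. Lower genes of that list fell to 2 with the replicate block, and without control replicates 1 and 3 there were 4 higher and 2 lower. The same omission left 8 higher and 5 lower families, but ended the calls of Idefix (adjusted p = 0.0715) and flea (adjusted p = 0.0722). The member total, 332 CPM higher in vostok, was 214 to 509 higher with one library left out and 598 higher without control replicates 1 and 3. Transpac and mdg3 reversed without their leading row (3.40 and -0.81); by construction that sum holds fewer rows. Other causes were not tested. Tirant and ZAM were too scarce for the stricter filter, and ZAM without its leading row could not be tested.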
